A study of Mus musculus with 20 samples.

Results

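The effect of mutant U2AF1 on the bone marrow transcriptome was examined after treatment with a splicing modulator. For this, 5 sudemycin D6-treated U2AF1(S34F) mice were compared with 5 sudemycin D6-treated U2AF1(WT) mice. These 10 mice were chosen by their genotype and treatment labels out of 20 in the series. The other 10 mice received vehicle, and they enter the comparison of both treatments at the end, the plot of mean inclusion by base and the alternative model fitted to all mice. All recipients carried engrafted donor marrow with a doxycycline-inducible transgene under rtTA, either U2AF1(WT)/rtTA or U2AF1(S34F)/rtTA, and the donor cells of several transgenic animals were pooled before transplantation into irradiated congenic hosts, so that mice of 1 genotype may share donors. The transgene was induced for 7 days with chow that held 625 ppm doxycycline. Sudemycin D6 was infused through a jugular catheter on the last 5 of these days. Marrow was taken the day after the last infusion, and whether splicing was still inhibited then was not tested here. U2AF1(WT) mice therefore also carried an induced U2AF1 transgene and also received the drug, so that the groups shared transplantation, doxycycline and sudemycin D6. Total RNA of bulk bone marrow was depleted of ribosomal RNA and sequenced from stranded libraries, and read counts were given for 37620 genes and 554616 splice junctions, of which 535081 junctions are autosomal.

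U2AF1 is the small subunit of U2AF, the heterodimer that marks the end of an intron. U2AF2 binds the pyrimidine tract, U2AF1 contacts the AG dinucleotide that closes the intron together with the bases around it, and SF1 holds the branch point until the U2 snRNP with SF3B1 takes its place. Sudemycin D6 binds SF3B1. The S34F substitution, recurrent in myelodysplastic syndromes and acute myeloid leukaemia, lies in a zinc finger of U2AF1 and is known for its preference at the base just before the AG.

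*U2af1* levels (CPM, counts scaled to the TMM-normalised library size) were 40.4, 43.8, 37.8, 41.8 and 47.8 in U2AF1(WT) mice 6, 8, 9, 10 and 12, and 56.1, 50.8, 52.4, 57.0 and 53.8 in U2AF1(S34F) mice 2, 6, 9, 10 and 12, an order that all lists of single-mouse values below keep. The groups did not overlap (log2 fold change 0.35, standard error 0.07, FDR=0.00416, edgeR with Benjamini-Hochberg adjustment), and the count does not separate the transgene from the endogenous gene. Gene counts summed to between 45019332 and 51335297 in U2AF1(WT) mice and between 51136901 and 58414054 in U2AF1(S34F) mice. *Xist* counts ranged from 39145 to 74841 for U2AF1(WT) and from 1 to 8 for U2AF1(S34F), whereas *Eif2s3y*, *Ddx3y*, *Kdm5d* and *Uty* summed to 0 for each U2AF1(WT) mouse and to 11217 to 13283 for U2AF1(S34F). Genotype and this pattern of sex-linked transcripts cannot be told apart here, nor in the vehicle-treated mice, and autosomal genes and junctions alone are described. U2AF1(WT) mice 8 and 9 stood apart from the other U2AF1(WT) mice in lineage markers, and results that rest on them are also given without both.

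The 3′ splice sites of the exons with the largest changes are shown first, as 20 intron bases and 3 exon bases of mm9 (NCBI build 37), 5′ to 3′ on the strand of the gene. Capitals mark the last 3 intron bases, and the first capital is position −3. The first 9 sites belong to the 10 exons with the largest decrease in inclusion in U2AF1(S34F) mice, where *Poli* is named only.
*Naip2*, chr13:100932317-100932339, minus strand: ctccattctatcccctaCAGatg
*Apol11b*, chr15:77468486-77468508, minus strand: attatttttctgataaaTAGtgg
*2610020H08Rik*, chr7:126987753-126987775, plus strand: gggatttttcttgctttTAGagt
*Cep55*, chr19:38131880-38131902, plus strand: aactttctgttaatttaCAGgtg
*2510006D16Rik*, chr4:129279094-129279116, plus strand: gtttctctgtttgctctAAGggg
*Tmem80*, chr7:148519890-148519912, plus strand: ctggctgtgtgtgttccTAGgtc
*Smc6*, chr12:11283046-11283068, plus strand: gtcaatatgtgccttttTAGgtg
*2900076A07Rik*, chr7:88674023-88674045, plus strand: tgctgcttctctcccctTAGatt
*Ttc13*, chr8:127223619-127223641, minus strand: ttctgttttggtctgacTAGgag
The next 10 sites belong to the exons with the largest increase.
*1110005A03Rik*, chr11:116707113-116707135, plus strand: aatccctcctttaatccCAGcat
*Fbxo34*, chr14:48124641-48124663, plus strand: tgccttgtttttactgaCAGatc
*Ktn1*, chr14:48324075-48324097, plus strand: tctgttttatcattgtcAAGgct
*Pbrm1*, chr14:31836233-31836255, plus strand: gccttgttcttctctttCAGttc
*Lsm14a*, chr7:35132999-35133021, minus strand: ctttttttttaacctttCAGaaa
*Eif2c4*, chr4:126188775-126188797, minus strand: tttgttttctgtttttaAAGaat
*Jmjd1c*, chr10:66679711-66679733, plus strand: tttgtttttgtttttttAAGgtc
*Atp11a*, chr8:12863739-12863761, plus strand: gtctttcctcgtccttgCAGcag
*Pkig*, chr2:163484866-163484888, plus strand: ctatggttttacacgtaCAGgaa
*N4bp2*, chr5:66179272-66179294, plus strand: ctctttgtttttctcttAAGgga
The last 4 belong to exons chosen by gene, of which that of *Rbm39* was skipped more and the others were included more.
*Rbm39*, chr2:156004686-156004708, minus strand: ccatctatctctctttgTAGact
*H2afy*, chr13:56191216-56191238, minus strand: cctcatgcttctcttttCAGctg
*Med24*, chr11:98579077-98579099, minus strand: cttttttctctccccatAAGcat
*4932438A13Rik*, chr3:36921872-36921894, plus strand: ttcttattattttaattAAGttg
Of the 10 exons with the largest decrease 6 had thymine at −3, 3 cytosine and 1 adenine, and of the 10 with the largest increase 0 had thymine, 6 cytosine and 4 adenine.

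Cassette exons were changed in both directions. Of 54774 autosomal cassette exon events tested, 874 (1.6%) were skipped more and 764 (1.39%) were included more in U2AF1(S34F) mice (FDR<10% and |ΔΨ|>0.01, quasi-likelihood test of edgeR, Benjamini-Hochberg adjusted), where Ψ is the share of the exon-included form and ΔΨ is U2AF1(S34F) minus U2AF1(WT). They held 1533 exons of 1164 genes, and events of one exon share junctions. Only 661 of the called events consist wholly of junctions that are joined in the annotation. The median |ΔΨ| was 0.063, and 487 events passed 0.1, with 259 skipped and 228 included more. Of the 1638 called events, 579 had no overlap in Ψ between the groups. The share over all tested events is not given, so that this count has no reference. These counts depended on the test: limma on Ψ called 111 skipped and 44 included, and edgeR with an estimated dispersion called 2 and 0. The latter had 2910 unadjusted p-values under 0.05, against 6493 in the main test. A share of about 0.05 of all tests falls under that limit where nothing differs. The count of skipped events was 557 without U2AF1(WT) mice 8 and 9, an alternative chosen after the data were seen.

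The base at −3 separated the directions. Thymine stood there in 590 of 817 exons skipped more (72.2%, 95% Wilson interval 69.0 to 75.2), in 78 of 722 included more (10.8%, 8.74 to 13.3), and in 34.4% of all 40213 tested exons that follow an AG. Cytosine stood there in 22.9% of exons skipped more and 72.9% included more, against 58.8% of all tested exons, and adenine in 3.92% and 16.1%, against 6.47%. The next largest departures from all tested exons were smaller, in percentage points −6.59 for cytosine at −8 in exons skipped more, and −7.06 for guanine at the first exon base and 6.33 for adenine at −4 in exons included more. By the size of the change, thymine made up 72.0% of exons skipped more with |ΔΨ| up to 0.05, 71.9% of those from there to 0.1, 73.7% of those to 0.2 and 68.8% of the 77 exons above. For exons included more these shares were 11.6%, 9.46%, 8.77% and 16% of 50 exons. Without U2AF1(WT) mice 8 and 9 the thymine shares were 68.9% and 11.3%.

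**Figure D1:**
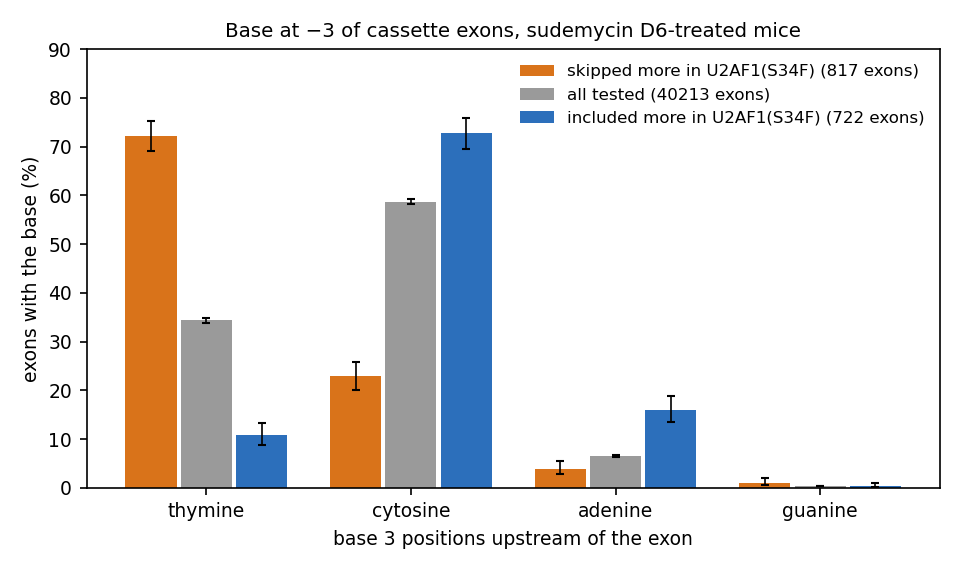
Share of cassette exons (%, with 95% Wilson intervals as error bars) with each base 3 positions upstream of the exon, for exons skipped more, exons included more and all tested exons in the sudemycin D6-treated mice. Thymine takes 72.2% of exons skipped more and 10.8% of exons included more.

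How often an exon was called also differed with this base. Of events whose exon has thymine at −3, 3.30% were called as skipped more and 0.415% as included more. With cytosine the shares were 0.628% and 1.74%, and with adenine 1.06% and 3.53%. To describe exons not chosen by a call, mean Ψ was taken over exons averaging at least 2 reads a mouse on the rarer isoform. Both genotypes under sudemycin D6 entered that average, so that skipping in U2AF1(S34F) mice could bring an exon in. The choice was therefore not free of Ψ. For the 4930 exons with thymine it was 0.827 to 0.833 in U2AF1(WT) mice, against 0.810 to 0.815 in U2AF1(S34F) mice. For the 7857 exons with cytosine it was 0.791 to 0.797 and 0.799 to 0.803. For the 929 exons with adenine it was 0.714 to 0.720 and 0.732 to 0.736. Each of these 5 against 5 comparisons was without overlap, and thymine moved down where cytosine and adenine moved up. The gap between thymine and cytosine exons was 0.0342 to 0.0375 in U2AF1(WT) mice, against 0.00707 to 0.0142 in U2AF1(S34F) mice.

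**Figure D2:**
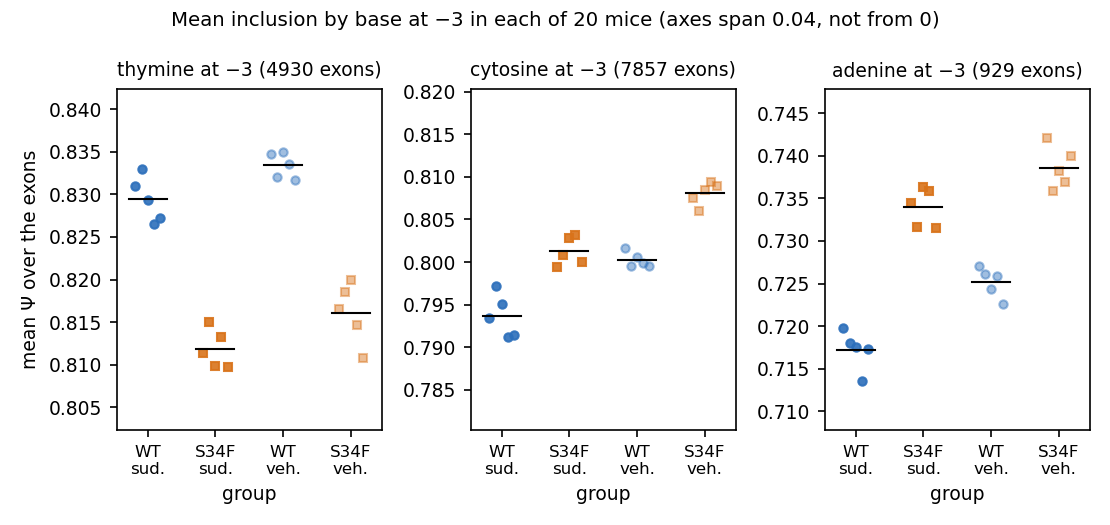
Mean Ψ over exons with thymine, cytosine or adenine at −3 in each of the 20 mice (points, 5 a group, horizontal bar the group mean), each panel on its own axis of equal span that does not start at 0. Thymine exons are lower and cytosine and adenine exons higher in U2AF1(S34F) mice, under sudemycin D6 and under vehicle.

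Among the exons skipped more, *Apol11b*, an apolipoprotein L gene of a multigene family, had Ψ of 0.692, 0.672, 0.667, 0.896 and 0.733 in U2AF1(WT) mice, against 0.326, 0.253, 0.271, 0.198 and 0.214 in U2AF1(S34F) mice (ΔΨ −0.48, FDR=7.54e-14, edgeR). *Smc6*, a subunit of the complex that keeps damaged chromosomes together, had 0.728, 1, 0.858, 0.697 and 0.828 and then 0.482, 0.549, 0.473, 0.427 and 0.494 (FDR=3.83e-12). *2610020H08Rik*, with only 15 to 64 reads a mouse, had 0.699, 0.730, 0.5, 0.607 and 0.533 and then 0.267, 0.222, 0.139, 0.388 and 0.0508 (FDR=4.25e-05). In all 3 exons every U2AF1(S34F) mouse lay below every U2AF1(WT) mouse, as the choice of these exons required. The *Apol11b*, *Smc6* and *2610020H08Rik* exons have 124, 106 and 188 bases, so that skipping any of them alone would shift the reading frame. Each of these events includes junctions that are not joined in the annotation, and the full transcripts are not known. The 66-base exon of *Ttc13* keeps the frame and had 0.781, 0.692, 0.482, 0.598 and 0.720 and then 0.460, 0.298, 0.289, 0.446 and 0.350 (FDR=9.80e-09). Of the other large changes, *Cep55* (5′ UTR exon, midbody protein) fell by 0.358, *2510006D16Rik* by 0.345, *Tmem80* by 0.342, *2900076A07Rik* by 0.326 and *Poli* (a translesion DNA polymerase) by 0.284 in Ψ. The largest value was −0.567 in *Naip2*, an intracellular receptor of the innate immune system, but 1 U2AF1(S34F) mouse stood at 0.8 and the others at 0.0625 to 0.4. The *Naip2* event averaged 266.4 reads in U2AF1(WT) mice and only 36.6 in U2AF1(S34F) mice. Its gene count was not called (log2 fold change −0.021, FDR=0.922, edgeR), and the reason for the loss of reads was not tested. Paralogues make the counts of *Naip2* and *Apol11b* uncertain.

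Among exons included more, *Lsm14a*, which belongs to mRNA processing bodies, was the best measured, with 595 to 1021 reads a mouse. Its Ψ was 0.662, 0.670, 0.589, 0.638 and 0.653 and then 0.842, 0.850, 0.916, 0.897 and 0.854 (FDR=1.46e-26, edgeR). *Ktn1*, the kinesin receptor kinectin, had 0.431, 0.186, 0.304, 0.362 and 0.419 and then 0.593, 0.654, 0.734, 0.636 and 0.712 (FDR=7.12e-09). *1110005A03Rik* had 0.312, 0.315, 0.263, 0.461 and 0.120 and then 0.630, 0.532, 0.880, 0.619 and 0.848 (FDR=1.82e-10). The groups were apart in each, which was a condition of the choice, and the 57-base *Lsm14a* and 69-base *Ktn1* exons add whole codons. The *Lsm14a* event includes junctions that are not joined in the annotation. *Jmjd1c*, a JmjC-domain protein, rose by 0.218, *Pkig*, an inhibitor of protein kinase A, by 0.215 in its 5′ UTR, and *Atp11a*, a phospholipid flippase, by 0.218. *Fbxo34* (0.391), *Pbrm1*, a subunit of a SWI/SNF remodeller (0.293), the Argonaute gene *Eif2c4* (0.227) and *N4bp2* (0.211) completed the 10 largest.

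Of these 20 exons, 8 were also called by limma on Ψ (*Apol11b*, *Smc6*, *2510006D16Rik*, *2900076A07Rik*, *Lsm14a*, *Ktn1*, *Jmjd1c* and *Pkig*) and 0 with an estimated dispersion. With single mice left out, the FDR reached 0.101 in *Atp11a* (without U2AF1(S34F) mouse 2), 0.131 in *Eif2c4* (without U2AF1(WT) mouse 9), 0.225 in *N4bp2* (without U2AF1(S34F) mouse 12), 0.267 in *Poli* (without U2AF1(S34F) mouse 6), 0.287 in *Pbrm1* (without U2AF1(WT) mouse 10) and 0.348 in *Fbxo34* (without U2AF1(WT) mouse 9). The other 14 exons were called with any single mouse left out. Without U2AF1(WT) mice 8 and 9 together, *Fbxo34* and *Eif2c4* were not called.

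**Figure D3:**
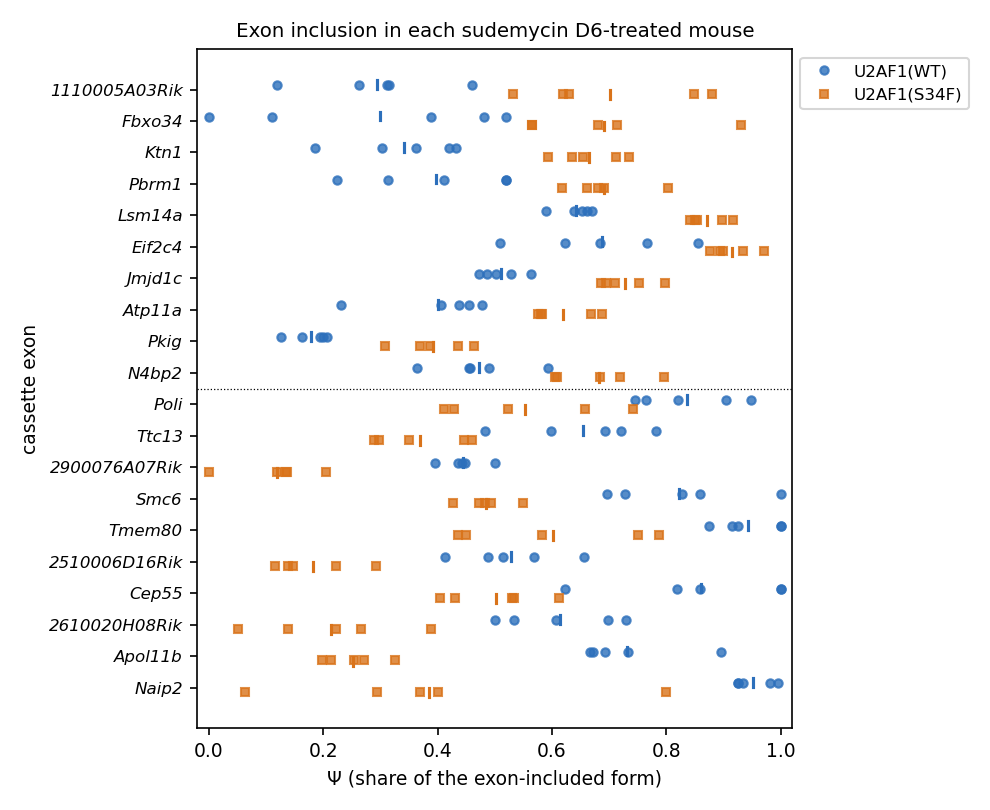
Ψ of the 10 exons with the largest increase (above the dotted line) and the 10 with the largest decrease (below it) in each sudemycin D6-treated mouse, with circles for U2AF1(WT), squares for U2AF1(S34F) and short bars for group means. No exon has overlapping groups, which was a condition for showing it.

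Other exons belong to genes chosen by name, of which the event with the smallest p was taken. The *4932438A13Rik* exon had 0.434, 0.521, 0.467, 0.484 and 0.319 in U2AF1(WT) mice, against 0.630, 0.611, 0.589, 0.577 and 0.621 in U2AF1(S34F) mice (FDR=4.03e-05, edgeR), without overlap. It is 1 of 3 called exons of this gene, and the others were skipped more (ΔΨ −0.0319 and −0.0683). Mouse orthologues of human U2AF1(S34F) targets were called in *Med24* (Mediator subunit, ΔΨ 0.196), *Eif4a2* (translation helicase, −0.0962), *Gnas* (stimulatory G protein, 0.0918), *H2afy* (macroH2A histone, 0.0741), *Ubtf* (factor of RNA polymerase I, 0.0632) and *Eif4g1* (−0.0145). The *Med24* exon had 0.105, 0.113, 0.0850, 0.0846 and 0.0960 and then 0.385, 0.269, 0.438, 0.229 and 0.144, a spread among U2AF1(S34F) mice far above that among U2AF1(WT) mice. The *H2afy* exon stood at 0.876 to 0.919 and 0.964 to 0.980 (FDR=4.16e-18). *Atr* (FDR=0.363), *Chchd7* (FDR=0.558) and *Ctnnb1* (FDR=0.0530 but |ΔΨ| under 0.01) were not called. *Casp8* had a ΔΨ of −0.423 from at most 50 reads a mouse, with 0 reads in U2AF1(WT) mouse 12, which its value leaves out, and it was not called without any of 4 single mice (FDR up to 0.598, without U2AF1(WT) mouse 9). The *Ubtf* call was lost without any of 7 single mice (FDR up to 0.194) and that of *Eif4g1* without U2AF1(S34F) mouse 6 (FDR=0.181) or 9. Of the called exons named here other than that of *Casp8*, which has no limma value, limma on Ψ called that of *H2afy* (FDR=0.0255) and not those of *4932438A13Rik* (FDR=0.203), *Gnas* (FDR=0.207), *Ubtf* (FDR=0.252), *Med24* (FDR=0.346), *Eif4a2* or *Eif4g1* (FDR=0.681 for both), and edgeR with an estimated dispersion called none of these 7.

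Alternative 3′ splice sites shifted towards the downstream site. Of 3158 pairs of sites tested, 94 (2.98%) were called, and the upstream site, which gives the longer exon, was used less in 77 and more in 17. Where it was used less, thymine stood at −3 of the upstream site in 60.5% of 76 pairs and at −3 of the downstream site in 10.5%. Over all 3098 tested pairs with an AG at both sites, these shares were 27.9% and 16.9%. Where the upstream site was used more, they were 11.8% and 29.4% of 17 pairs. The following sites, the first upstream and the second downstream in each pair, show both directions, and are the 3 of the 8 named pairs in which 1 site reads TAG: *Jmjd1c* used its upstream site less, and *Tmem50a* and *Picalm* used theirs more.
*Jmjd1c* first, chr10:66680766-66680788, plus strand: tgttttatgtcatggatTAGgta
*Jmjd1c* second, chr10:66680845-66680867, plus strand: cgttcactctttgttaaAAGgtg
*Tmem50a* first, chr4:134469174-134469196, minus strand: atccagctgttattttgCAGaaa
*Tmem50a* second, chr4:134469108-134469130, minus strand: ctgtgatggttttggttTAGtga
*Picalm* first, chr7:97339631-97339653, plus strand: catctgtttgtaactttAAGgct
*Picalm* second, chr7:97339646-97339668, plus strand: ttaaggctttgatgaacTAGgtg
In each of these pairs the site that lost use was the one with TAG. The junction to the upstream site of *Jmjd1c* is also the junction that skips the *Jmjd1c* cassette exon listed above. Both *Jmjd1c* results therefore share reads and are not independent. The other 5 named pairs have TAG at neither site, and their |ΔΨ| was 0.170 to 0.586.

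The share of the upstream site in *Jmjd1c* was 0.746, 0.684, 0.630, 0.631 and 0.770 in U2AF1(WT) mice, against 0.390, 0.389, 0.453, 0.377 and 0.386 in U2AF1(S34F) mice (FDR=0.000278, edgeR). In *Tmem50a* it was 0.0948, 0.139, 0.129, 0.136 and 0.186 and then 0.292, 0.264, 0.285, 0.221 and 0.242 (FDR=3.59e-08). In *Picalm*, a clathrin assembly gene, it was 0.294, 0.3, 0.221, 0.277 and 0.293 and then 0.371, 0.337, 0.416, 0.424 and 0.375 (FDR=8.82e-05). None of the 3 had overlapping groups, which was a condition for naming the 8 pairs. *Slc35c2*, a nucleotide sugar transporter, fell from 0.649 to 1 in U2AF1(WT) mice to 0.250 to 0.458 in U2AF1(S34F) mice, and *Ccdc76* from 0.717 to 0.824 to 0.348 to 0.569, the latter without a call when U2AF1(S34F) mouse 6 was left out (FDR=0.104). *Arfgap1* rose from 0.0880 to 0.287 to 0.392 to 0.583, and *Ccdc77* from 0 to 0.0612 to 0.125 to 0.261. The largest change was in *Itgb2l*, an integrin gene of neutrophils, whose upstream site fell from 0.682 to 0.884 to 0.157 to 0.331 (FDR=0.00289), but its second site does not follow an AG in mm9. *Itgb2l* was also the member of the late neutrophil markers with the largest change in expression (log2 fold change −1.22, FDR=0.00411). All 8 named pairs were called by limma on Ψ, and *Ccdc76* and *Ccdc77* were not called without U2AF1(WT) mice 8 and 9.

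Alternative 5′ splice sites changed less often, in 21 of 1923 events (1.09%), with the site of the longer exon used more in 8 and less in 13. *Trmt1*, a tRNA methyltransferase, used it at 0.184 to 0.476 in U2AF1(WT) mice and at 0 to 0.0750 in U2AF1(S34F) mice (FDR=0.00680, edgeR). *Mprip*, which binds myosin phosphatase, went from 0.519 to 0.740 to 0.302 to 0.425, and *Smek2* from 0.803 to 1 to 0.568 to 0.760. *Lyrm5* rose from 0.676 to 0.944 to 1 in all 5 U2AF1(S34F) mice, *Celf2*, an RNA-binding protein, from 0.478 to 0.601 to 0.607 to 0.657, and *2510006D16Rik* from 0.454 to 0.501 to 0.521 to 0.629. The last was not called without U2AF1(S34F) mouse 6 (FDR=0.114), and limma called 0 of these 5′ splice site events, with 126 unadjusted p-values under 0.05, against 151 by edgeR.

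Mutually exclusive exons were called in 181 of 1669 pairs (10.8%), but 53 of these join exons of different annotated genes, and the 4 largest changes lie in such pairs of paralogues (*Gm15448* and *Gm10693*, *Zfp429* and *Zfp456*, *Ifi204* and *Mndal*, *Gm13139* and *Gm13166*), whose reads cannot be assigned with certainty. Within 1 gene, 128 pairs were called, and 13 remain when only junctions joined in the annotation are used. As examples chosen after their values were seen, the share of the exon with the lower coordinates fell in *Luc7l2*, a component near the U1 snRNP, from 0.652 to 0.811 to 0.460 to 0.633 (FDR=0.00467, edgeR). It rose in *Rev1*, a translesion polymerase, from 0.425 to 0.625 to 0.708 to 0.775 (FDR=0.00268), and in *Rnf126*, a ubiquitin ligase, from 0.184 to 0.425 to 0.462 to 0.607 (FDR=0.0124). It fell in *Shq1*, which helps to build H/ACA ribonucleoproteins, from 0.522 to 0.771 to 0.220 to 0.471, and that call was lost without U2AF1(WT) mice 8 and 9 (FDR=0.131). Each of these 4 pairs includes junctions that are not joined in the annotation.

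Exons included more were shorter than the others, with a median of 97 bases against 114 for exons skipped more and 115 for all tested exons, given here as a description. Both called sets were less often coding (87.0% of exons skipped more and 85.4% included more) than all tested exons (94.5%), and more often a multiple of 3 in length (47.2% and 46.3% against 38.8%). The median intron upstream of the exon was 2138 bases for exons skipped more, 2472 for exons included more and 2052 for all tested exons.

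Among the splicing factors themselves, *Rbm39*, a relative of U2AF2 that joins it at 3′ splice sites, was the only gene with called events among those of 3′ splice site recognition, with 5 of 116 tested for that list, where 3.14% of all 61524 events were called. Events of one gene share junctions, so that such counts are not counts of independent events. Its exon at chr2:156004616-156004688 had Ψ of 0.448, 0.600, 0.492, 0.425 and 0.521 in U2AF1(WT) mice, against 0.283, 0.337, 0.288, 0.291 and 0.247 in U2AF1(S34F) mice (FDR=3.14e-46, edgeR). All 5 called *Rbm39* events went down in Ψ, and the 73-base exon shifts the frame. None of 42 events in the SF3A and SF3B complex, which holds the target of sudemycin D6, was called. The SR proteins had 6 of 73, in *Srsf11* (−0.131), *Srsf5* (upstream 3′ site, −0.0353), *Srsf2* (0.0326) and *Srsf1*. The hnRNP proteins had 15 of 203 in 12 genes, such as *Ptbp1* (−0.0959), *Hnrnpl* (−0.0501) and *Hnrnph1* (0.0509), and the *Ptbp1* call was lost without U2AF1(WT) mice 8 and 9 (FDR=0.116). Nonsense-mediated decay factors had 3 of 121, in *Smg1* and *Casc3*, with |ΔΨ| up to 0.0617. *Smg1* was not called without U2AF1(S34F) mouse 9 (FDR=0.119), and neither of the *Casc3* events without any of several mice (FDR up to 0.325, without U2AF1(WT) mouse 6). Translation factors had 8 of 263 in 6 genes, and the BCL2 family and caspases 7 of 140 in 5. limma on Ψ called the *Rbm39* exon (FDR=0.0752) and the *Srsf5* site (FDR=0.0465), and not the named exons of *Srsf11*, *Srsf2*, *Ptbp1*, *Hnrnpl*, *Hnrnph1*, *Smg1* or *Casc3* (FDR from 0.194 in *Hnrnph1* to 0.681 in *Casc3*).

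Outside the splicing machinery, 24 of 409 events in genes of mitosis and chromosome segregation were called, in 11 genes, against the same 3.14% of all events. *Cenpa*, the histone of centromeres, included its 91-base exon at 0.259 to 0.329 in U2AF1(WT) mice, against 0.367 to 0.412 in U2AF1(S34F) mice (FDR=4.10e-05, edgeR). *Kif23*, a kinesin of the midbody, moved by −0.0929 and *Mki67* by 0.0573, both with overlapping groups, and *Kif23* was not called without U2AF1(WT) mice 8 and 9 (FDR=0.265). Of 138 events in p53 targets 7 were called. *Apaf1*, the scaffold of the apoptosome, used its upstream 3′ site at 0.422 to 0.562 and then at 0.281 to 0.371 (FDR=7.46e-05). *Ddb2*, a DNA damage sensor, had a ΔΨ of 0.475 from at most 37 reads a mouse, with overlapping groups. Of 203 events in recurrent myeloid neoplasm genes 10 were called, in *Csf3r*, *Srsf2*, *Asxl1*, *Cbl* and *Smc3*, and the receptor *Csf3r* included an 80-base exon at 0.937 to 0.969 and then at 0.978 to 0.989 (FDR=4.38e-10). limma on Ψ called the events of *Cenpa* (FDR=0.0869) and *Apaf1* (FDR=0.0613), and not those of *Kif23* (FDR=0.564), *Mki67* (FDR=0.681), *Ddb2* (FDR=0.404) or this exon of *Csf3r* (FDR=0.214).

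Gene expression differed broadly. Of 14140 autosomal genes tested, 2377 (16.8%) were higher and 2816 (19.9%) were lower in U2AF1(S34F) mice (FDR<10%, edgeR with Benjamini-Hochberg adjustment), of which 185 and 566 differed by a log2 fold change of at least 1. The median over all tested autosomal genes was −0.032. The largest increases were in *Slc15a2*, a peptide transporter, with 3.79, 1.19, 3.99, 5.68 and 3.52 CPM in U2AF1(WT) mice, against 24.0, 26.1, 20.6, 24.2 and 19.6 in U2AF1(S34F) mice (log2 fold change 2.65, standard error 0.29, FDR=0.000124), and in *Fah*, the last enzyme of tyrosine breakdown, with 4.66, 5.59, 4.39, 6.45 and 4.04 and then 17.2, 19.4, 27.1, 17.2 and 19.1 (1.99, 0.16, FDR=1.53e-05). Neither gene had overlapping groups, which was a condition for the 14 genes ranked here. *Sncaip* (1.73), *Zfp808* (1.68), *Hddc3* (1.67), the receptor phosphatase *Ptprm* (1.48), *Nlrp1a*, an inflammasome sensor (1.40), *Arhgap5* (1.36), and *Ccr2* (1.36) were also among the 14 largest, with *Gm16847*, *A530099J19Rik*, *Gm13225*, *Gm6969* and *2610037D02Rik*.

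The largest decreases took transcripts close to 0. *Hist1h4m*, a histone H4 gene, had 32.9, 43.6, 64.4, 31.2 and 17.9 CPM and then 0.446, 0.416, 0.377, 0.592 and 0.929 (log2 fold change −6.11, standard error 0.38, FDR=2.39e-06, edgeR). *Lipg*, the endothelial lipase, had 17.1, 35.3, 17.4, 20.1 and 20 and then 0.617, 0.605, 0.503, 0.648 and 0.455 (−5.27, 0.24, FDR=5.85e-08). *Gbp1*, an interferon-induced GTPase, had 5.04, 85.2, 12.4, 3.79 and 5.38 and then 0.278 to 0.772 (−5.26, FDR=0.00450), a fold that leaned on U2AF1(WT) mouse 8. *Stfa1*, a stefin, leaned on U2AF1(WT) mouse 9 in the same way, with 54.0 CPM there and 2.71 to 9.31 in the other U2AF1(WT) mice. *Trim30d* (−3.85), *Trim12a* (−3.21) and *Trim5* (−2.95), neighbouring members of the tripartite motif family on chromosome 7, fell together. *Hspa1a* (−3.36), *Igkv4-63* (−3.41), *Gpr137b-ps* (−3.77), *Rpl34-ps1* (−3.28), *Gm4737*, *Gm13237* and *F830208F22Rik* were the others. Histones, stefins, the tripartite motif genes, guanylate-binding proteins and the pseudogenes have close copies, so that their counts are uncertain.

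Genes of growth rose together. Of 75 cytosolic ribosomal protein genes 56 were higher and 2 were lower (median log2 fold change 0.34), where 16.8% and 19.9% of all genes were called. Their summed CPM was 23096, 21139, 22958, 21340 and 18734 in U2AF1(WT) mice, against 25032, 26949, 25758, 28623 and 27192 in U2AF1(S34F) mice, without overlap. *Rpl34* (1.06) and *Rps3a* (0.78) were higher, and *Rpl29* (−1.69) was lower, with 74.3, 71.6, 105, 49.6 and 36.1 CPM and then 26.3, 19.4, 20.3, 19.8 and 18.3. Of 74 nuclear-encoded respiratory chain genes 48 were higher and 0 lower (median 0.30), led by the ATP synthase subunit *Atp5e* (1.14). The constitutive proteasome had 22 of 31 higher and 0 lower (median 0.32), as in *Psmc6* (0.68). Translation factors had 18 of 39 higher and 3 lower, among them *Eif3e* (0.66) and *Eif1* (−0.66), but 9 higher without U2AF1(S34F) mouse 10, 10 without U2AF1(S34F) mouse 12 and 12 to 16 without any other mouse, and the oligosaccharyltransferase list had 10 of 20 higher and 1 lower.

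Genes of the cell cycle rose as well, where 16.8% of all genes were called higher and 19.9% lower. Of 50 genes of mitosis and chromosome segregation 40 were higher and 0 lower (median 0.32), and of 37 DNA replication genes 22 were higher and 0 lower (median 0.26). *Ndc80*, of the outer kinetochore, had 34.9, 43.3, 46.5, 33.5 and 32.7 CPM and then 65.2, 60.5, 68.1, 67.1 and 65.2 (FDR=0.000348, edgeR). *Ccne2*, a cyclin of the entry into S phase, had 21.6, 21.4, 20.9, 23.2 and 21.7 and then 39.2, 29.2, 43.5, 39.9 and 41 (FDR=0.000203). Both genes were apart in every mouse. *Top2a* (0.55), *Nuf2* (0.68), *Sgol1* (0.60), *Tyms* (0.60) and *Rfc3* (0.56) were among the higher genes. The counts moved by less than 1.5 times with any single mouse left out, at 35 to 42 for mitosis and 19 to 26 for DNA replication.

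Immediate-early genes, whose transcripts appear within minutes of a stimulus, fell almost without exception. Among all genes, 16.8% were called higher and 19.9% lower. Of 21 tested, 19 were lower and 0 higher (median −1.34), and their summed CPM was 3399, 3720, 4243, 3652 and 3718 in U2AF1(WT) mice, against 1740, 1503, 1587, 1530 and 1642 in U2AF1(S34F) mice. *Zfp36*, which destabilises inflammatory mRNAs, had 388, 482, 461, 407 and 431 CPM and then 147, 143, 141, 135 and 141 (log2 fold change −1.62, standard error 0.08, FDR=1.04e-07, edgeR). *Nr4a1* had 65.7, 87.3, 122, 107 and 121 and then 25.6, 18.2, 15.2, 23.9 and 16.6 (−2.34). *Fos* (−1.46), *Egr1* (−2.24), *Egr3* (−2.59) and *Klf2* (−2.29) fell too, and the groups of *Fos*, *Egr1* and *Klf2* did not overlap. The heat shock gene *Hspa1b* (−2.80) and the stress phosphatase regulator *Ppp1r15a* (−1.61) went the same way, while their lists were mixed, with 5 of 17 heat shock chaperones higher and 4 lower, and 8 of 24 genes of the integrated stress and unfolded protein response higher and 5 lower.

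Class I antigen presentation was mixed, with 4 of 16 higher and 4 lower, where 16.8% of all genes were called higher and 19.9% lower. The counts of the other lists here are to be read against the same shares. Inflammatory cytokine and inflammasome genes had 12 of 26 lower and 6 higher. *Tnfaip3*, a brake on NF-κB, *Ptgs2* (−2.23), *Nlrp3* (−0.78) and *Nod2* (−1.09) were lower, and *Ccl9* (0.96) and *Nlrp1a* were higher. Interferon-stimulated genes were lower in 3 of 30 and higher in 0, and without U2AF1(WT) mouse 8 alone they were lower in 1 and higher in 5, and without U2AF1(WT) mice 8 and 9 lower in 1 and higher in 10. *Ifi44* was the largest of them, with 3.47 CPM in U2AF1(WT) mouse 8 and 0.178 to 0.593 in the other 9 mice. The 25 p53 targets gave 3 higher and 5 lower, with *Plk3* (−1.57), and the 30 genes of the BCL2 family and caspases gave 2 higher and 8 lower, with *Pmaip1* (−1.22), which promotes apoptosis, and *Mcl1* (−0.43), which opposes it. The p53 targets had 1 higher without U2AF1(S34F) mouse 9 or 10, and the BCL2 family and caspases 5 lower without U2AF1(WT) mouse 10 or U2AF1(S34F) mouse 9 or 12.

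Splicing factor genes were called in both directions. *U2af2* was 120, 127, 128, 138 and 142 CPM in U2AF1(WT) mice, against 96.1 to 103 in U2AF1(S34F) mice (log2 fold change −0.38, FDR=0.00162, edgeR), and *Sf1* was lower as well (−0.36, FDR=0.00810), so that *U2af1* was higher and the genes of its partners were lower. Among 11 genes of 3′ splice site recognition 3 were higher and 4 lower, where 16.8% and 19.9% of all genes were called. *Sf3b1* stood at 662 to 788 and 719 to 841 CPM (FDR=0.478), and its complex had 1 of 11 higher (*Sf3a3*, 0.33) and 2 lower, *Sf3a2* (−0.46) without a call when any of 5 single mice was left out (FDR up to 0.129). The SR proteins had 3 of 12 higher and 2 lower, the hnRNP proteins 5 of 26 and 2, nonsense-mediated decay factors 4 of 15 and 3, recurrent myeloid neoplasm genes 6 of 30 and 5, and orthologues of human targets 4 of 12 and 1. *Hnrnpa1* (0.41), *Magoh* (0.53) and *Npm1* (0.56) were higher, and *Srsf5* (−0.36) and *Dnmt3a* (−0.67) were lower. Counts this small turned on single mice. The SR proteins had 1 higher without U2AF1(WT) mouse 8 or 9 or U2AF1(S34F) mouse 2 or 9, and the hnRNP proteins 8 higher without U2AF1(WT) mouse 12, 4 lower without U2AF1(WT) mouse 9 and 0 or 1 lower without any mouse but U2AF1(WT) mouse 6 or 9. The myeloid neoplasm genes had 1 lower without U2AF1(S34F) mouse 12, 2 without U2AF1(S34F) mouse 6 or U2AF1(WT) mouse 10 and 3 without U2AF1(WT) mouse 8, and the orthologues 2 higher without U2AF1(S34F) mouse 12 and 0 lower without any of 7 single mice. The lower count of the SF3A and SF3B complex was 0 without U2AF1(WT) mouse 8 or U2AF1(S34F) mouse 6 or 12, and 1 without U2AF1(WT) mouse 12 or U2AF1(S34F) mouse 2.

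**Figure D4:**
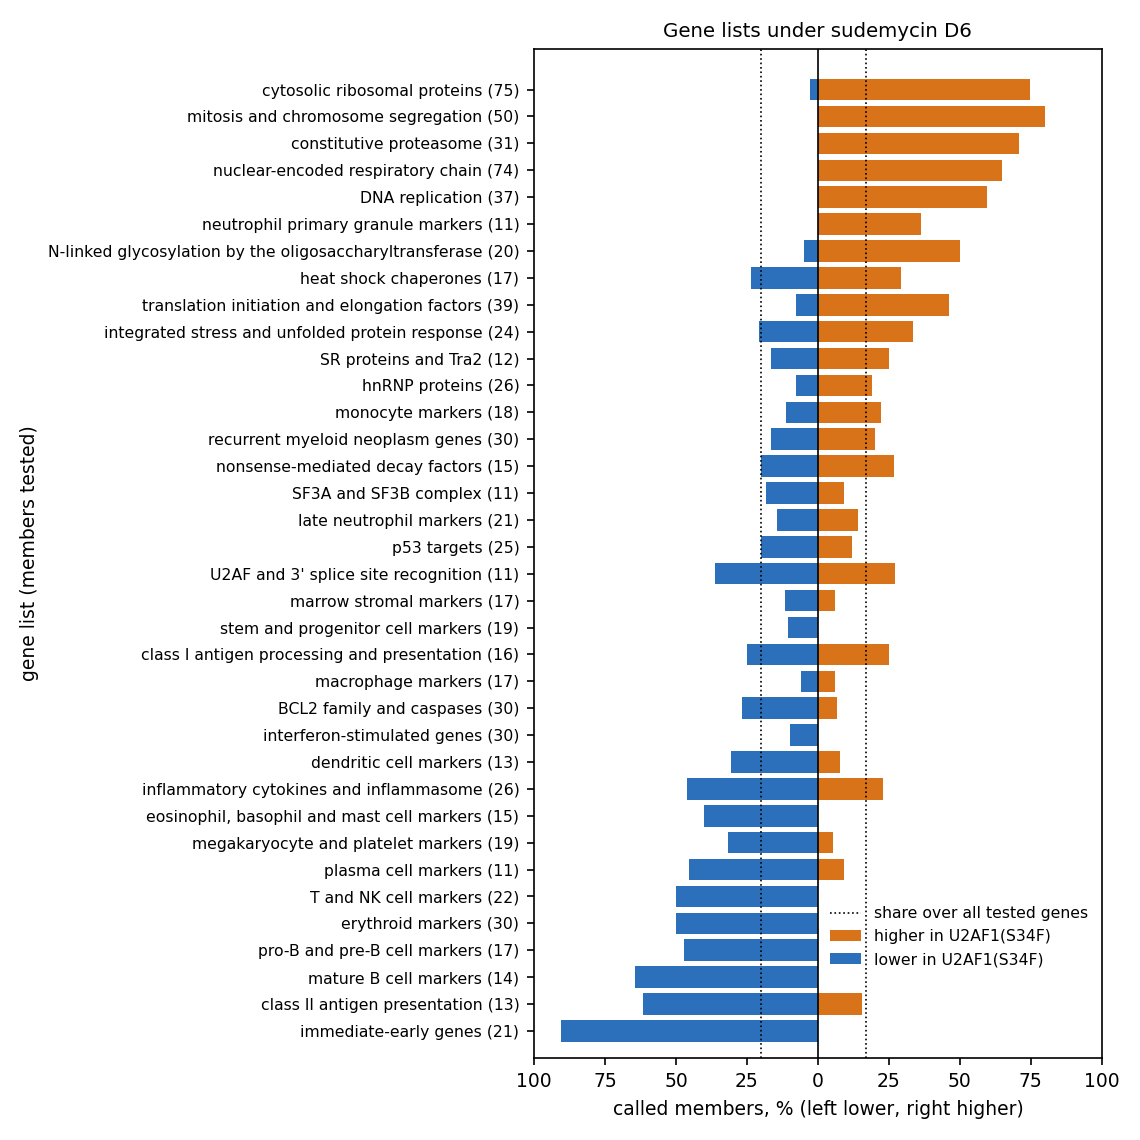
Share of tested members (%) called higher (to the right) or lower (to the left) in sudemycin D6-treated U2AF1(S34F) mice for each gene list other than the orthologues, with the number tested in brackets and dotted lines at 16.8% and 19.9%, the shares over all tested autosomal genes. Ribosomal, mitotic, proteasome and respiratory chain genes stand to the right, and immediate-early, class II and lymphoid genes to the left.

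Lineage markers moved too, and in bulk marrow fewer cells of a type and less RNA per cell cannot be told apart. Myeloid markers were called in both directions, against 16.8% of all genes higher and 19.9% lower. *Mpo* was 1271 to 1956 CPM in U2AF1(WT) mice, against 1334 to 2264 in U2AF1(S34F) mice (FDR=0.336, edgeR). Primary granule markers had 4 of 11 higher and 0 lower (1 higher without U2AF1(S34F) mouse 9 or 10 and 2 without U2AF1(WT) mouse 6 or 12), late neutrophil markers 3 of 21 higher and 3 lower, and monocyte markers 4 of 18 and 2 (1 lower without any of 4 single mice). *Ccr2*, the chemokine receptor of inflammatory monocytes, had 343, 221, 263, 275 and 287 CPM and then 756, 777, 569, 855 and 598 (log2 fold change 1.36, FDR=8.78e-05), and *Fcgr1* (1.26), *Ms4a6b* (0.89) and the cathepsin *Ctsc* (0.91) were higher, all without overlap. *Csf1r* was lower (−0.40), a call lost without any of 4 single mice (FDR up to 0.130). Macrophage markers had 1 of 17 higher and 1 lower, dendritic cell markers 1 of 13 and 4 (1 lower without U2AF1(WT) mouse 10 and 2 without U2AF1(WT) mouse 6 or U2AF1(S34F) mouse 6 or 12), marrow stromal markers 1 of 17 and 2 with *Col1a1* at −1.28, and stem and progenitor cell markers 0 of 19 and 2. Stromal markers had 5 higher without U2AF1(WT) mouse 6 and 0 without any of 7 other mice, and stem and progenitor cell markers 4 lower without U2AF1(WT) mouse 9, 0 without U2AF1(S34F) mouse 12 and 2 without U2AF1(S34F) mouse 9, with 1 lower without any of the others. Eosinophil, basophil and mast cell markers had 6 of 15 lower and 0 higher, among them *Prg2* (−0.69) and *Epx* (−0.70).

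Lymphoid and erythroid markers included more lower than higher genes, against 16.8% higher and 19.9% lower of all genes. Mature B cell markers had 9 of 14 lower, pro-B and pre-B cell markers 8 of 17, T and NK cell markers 11 of 22, erythroid markers 15 of 30, class II antigen presentation 8 of 13 (2 higher), plasma cell markers 5 of 11 (1 higher) and megakaryocyte and platelet markers 6 of 19 (1 higher). *Klf1*, the erythroid transcription factor, had 13.7, 2.61, 3.06, 9.02 and 3.62 and then 3.07, 2.14, 1.24, 4.02 and 2.23, and its call was lost without any of 5 single mice (FDR up to 0.134). Summed erythroid markers were 1577, 623, 797, 1508 and 1393 CPM in U2AF1(WT) mice, against 962, 654, 839, 872 and 1095 in U2AF1(S34F) mice, and summed mature B cell markers 1061, 498, 498, 810 and 738 and then 474, 567, 549, 480 and 527. In both sums U2AF1(WT) mice 8 and 9 stood with the U2AF1(S34F) mice. Summed class II genes were 923, 711, 425, 932 and 1004 CPM and then 565, 695, 432, 622 and 486, and summed T and NK cell markers 114, 70.9, 52.6, 109 and 108 and then 81.9, 66.6, 60.5, 58.9 and 62.3, with the same mice the lowest of the U2AF1(WT) group. Summed pro-B and pre-B cell markers were 811 to 1003 and 794 to 1026 CPM, plasma cell markers 730 to 961 and 747 to 905, and megakaryocyte and platelet markers 211 to 293 and 163 to 280, and in none of these 3 were mice 8 and 9 the lowest U2AF1(WT) pair. All 7 sums overlapped between the groups. *Cd74*, the class II chaperone, had 256, 173, 81.5, 283 and 295 CPM and then 85.8, 104, 69.0, 88.5 and 72.3. *Cd8a* was without overlap, with 3.49, 2.80, 1.54, 3.96 and 4.36 and then 0.806, 1.06, 0.934, 0.870 and 0.771 (FDR=0.000563).

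The counts of these lists turned on single mice. The erythroid count lay between 8 (without U2AF1(WT) mouse 6) and 19 (without U2AF1(WT) mouse 8), and also fell to 9 without U2AF1(S34F) mouse 9 or U2AF1(WT) mouse 10. The mature B cell count was 13 without either U2AF1(WT) mouse 8 or 9 and 5 without any of the other 8 mice, and the pro-B and pre-B cell count lay between 4 (without U2AF1(WT) mouse 10 or 12 or U2AF1(S34F) mouse 12) and 9 (without U2AF1(WT) mouse 8). The plasma cell count fell to 0 without U2AF1(WT) mouse 6 or 10, and the megakaryocyte and platelet count to 3 without U2AF1(S34F) mouse 2, 10 or 12. Without both U2AF1(WT) mice 8 and 9 the numbers lower were 22 of 30 erythroid, 13 of 14 mature B cell, 10 of 17 pro-B and pre-B cell, 15 of 22 T and NK cell and 10 of 13 class II genes. Without these mice, 59 ribosomal protein and 44 mitotic genes were higher and 20 immediate-early genes were lower. Whether the makeup of the marrow has a part in the differences of the other gene groups was not tested.

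Genes could be changed in both layers. Of 667 tested genes with an exon skipped more, 25.9% were higher and 17.5% lower in expression, and of 588 with an exon included more 21.1% and 17.9%, against 20.6% and 20.9% of all 8932 genes with a tested cassette exon. *Smc6* (log2 fold change 0.47), *Cep55* (0.61) and *Zfp68* (0.63) had an exon skipped more and a higher gene count, and *1110005A03Rik* (−0.27) had an exon included more and a lower gene count. The *Zfp68* exon had Ψ of 0.651, 0.643, 0.658, 0.456 and 0.641 in U2AF1(WT) mice, against 0.391, 0.367, 0.327, 0.378 and 0.318 in U2AF1(S34F) mice (FDR=2.45e-09, edgeR). An exon of *Rad51c*, a recombination gene with a higher gene count (0.43), was at 1 in all U2AF1(WT) mice and at 0.526 to 0.931 in U2AF1(S34F) mice, a call lost without any of 7 single mice (FDR up to 0.261). That of *Xpo4* (0.31) was at 1 and at 0.581 to 0.846, and was lost without any of 4 (FDR up to 0.204). Neither exon was called without U2AF1(WT) mice 8 and 9.

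The vehicle-treated mice gave the same comparison in animals that the sudemycin D6 comparison did not use. Mice of the same genotype may share donors across the treatments, and the pattern of sex-linked transcripts goes with genotype under vehicle as well. A shared direction therefore cannot tell genotype apart from the donors or from that pattern. Of the 864 events skipped more under sudemycin D6 that could be tested under vehicle, 779 (90.2%) went in the same direction and 365 (42.2%) were called in it. Of the 738 included more, 636 (86.2%) went in the same direction and 254 (34.4%) were called. Over all 39646 cassette events tested in both, 58.7% had the same direction. The median ΔΨ was −0.063 under sudemycin D6 and −0.037 under vehicle for events skipped more, and 0.064 and 0.027 for events included more, but the events were chosen by their size under sudemycin D6. Of genes higher under sudemycin D6 94.9% of 2360 and of genes lower 95.5% of 2783 went the same way under vehicle, with 71.6% and 64.5% called, where 79.5% of all 13938 genes tested in both did. Under vehicle, 60 of 75 ribosomal protein genes, 23 of 31 proteasome genes and 30 of 50 mitotic genes were higher. In these lists 1, 0 and 2 genes were lower. All 21 immediate-early genes were lower (median −1.93, against −1.34 under sudemycin D6). Erythroid markers had 3 of 30 lower and 0 higher, and mature B cell markers 2 of 14 lower and 1 higher. Of all 14265 genes tested under vehicle, 5627 were called in either direction. Thymine at −3 took 73.0% of exons skipped more and 9.05% of exons included more under vehicle.

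**Figure D5:**
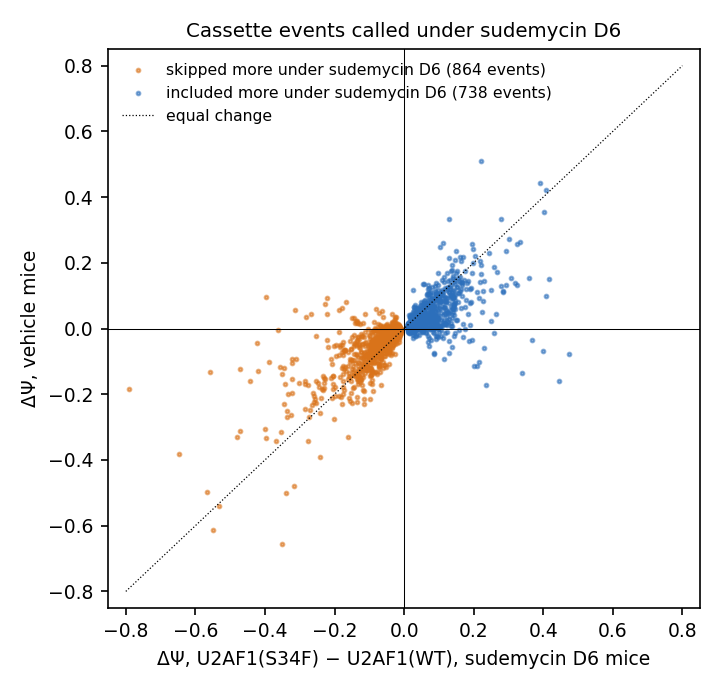
ΔΨ between U2AF1(S34F) and U2AF1(WT) mice under vehicle (vertical axis) against that under sudemycin D6 (horizontal axis) for cassette events called under sudemycin D6, with a dotted line of equal change. Most points share a direction, 90.2% of events skipped more and 86.2% of events included more.

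Exon by exon, *Rbm39* moved by −0.208 under sudemycin D6 and by −0.211 under vehicle (FDR=1.60e-51, edgeR), *Lsm14a* by 0.229 and 0.143, *Apol11b* by −0.480 and −0.331, *1110005A03Rik* by 0.408 and 0.422, and *H2afy* by 0.0741 and 0.107. *Hnrnpl* (−0.0501 and −0.000537), *Ccdc77* (0.170 and 0.0138), *Trmt1* (−0.312 and −0.0539) and *Shq1* (−0.265 and −0.00829) were called under sudemycin D6 and not under vehicle, but their interaction of genotype and drug was not called. In all, 0 of 69146 cassette events, 0 of 3410 and 0 of 2116 alternative 3′ and 5′ splice site events and 0 of 1732 mutually exclusive exon events had a called interaction by edgeR, with 3140, 170, 80 and 72 unadjusted p-values under 0.05. limma called 0 of each as well, with 1621, 135, 73 and 65.

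Of 14815 genes 1 had a called interaction by edgeR, with 1106 unadjusted p-values under 0.05, and DESeq2 called 110, of which 91 were more positive under sudemycin D6. The gene was *Atf3*, a stress-induced transcription factor, which had 11.8, 14.6, 16.7, 13.6 and 8.03 CPM in sudemycin D6-treated U2AF1(WT) mice, 6.32, 4.14, 3.48, 5.57 and 3.82 in sudemycin D6-treated U2AF1(S34F) mice, 99.1, 61.2, 59.7, 60.4 and 67.9 in vehicle-treated U2AF1(WT) mice and 6.15, 4.72, 5.64, 3.16 and 4.29 in vehicle-treated U2AF1(S34F) mice. Its level in U2AF1(WT) mice alone set the 2 treatments apart, and the log2 fold change between genotypes was −1.47 under sudemycin D6 and −3.86 under vehicle (interaction 2.39, FDR=0.000994, edgeR). By DESeq2, *Per1* (interaction 1.72, FDR=6.37e-05) and *Tlr2* (0.62, FDR=0.00235) had the same sign, with *Per1* at −1.01 under sudemycin D6 and −2.73 under vehicle. Monocyte markers were called with 4 higher and 2 lower of 18 under sudemycin D6 and 0 and 10 under vehicle (medians 0.05 and −0.57), 15 interaction p-values under 0.05, 0 called by edgeR and 4 by DESeq2. *Ccr2* had a log2 fold change of 1.36 under sudemycin D6 and 0.34 under vehicle (interaction FDR=0.305, edgeR), and *Ctsc* 0.91 and −0.26 (FDR=0.376).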

How the data were processed

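Stranded, ribosomal RNA-depleted libraries of bulk mouse bone marrow were aligned by the authors to mm9 with TopHat2 2.0.8, and the deposited values are raw read counts per gene and per splice junction, without normalization. The gene counter is not given in the sources used here. Replicates are single mice, 5 per group. The test for genes was the robust quasi-likelihood test of edgeR 4.0.16 under R 4.3.3, after filterByExpr and TMM, on the 10 sudemycin D6-treated mice, with Benjamini-Hochberg adjustment over all genes and FDR<10%. Splicing events were built from junctions with both ends annotated, and tested where both isoforms together averaged 10 or more reads a mouse, with the quasi-likelihood test, dispersion 0 and 1 coefficient per mouse. That test was taken from an earlier analysis of these data, where it had been chosen with results known, and other formulations called far fewer events. The members, gene lists and tests were all chosen with earlier results of these data known. limma 3.58.1 and DESeq2 1.42.0 were alternatives. The interaction used all 20 mice.

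Named genes were the 14 largest changes in each direction among autosomal genes that were called, without overlap between groups and at 5 CPM or more in the higher group, and, without these conditions on overlap and level, the called members with the smallest FDR or largest change and the defining members of 37 lists. Named events were the 10 largest cassette exons in each direction and the largest events of the other types among those called, without overlap and at a mean of 20 reads or more per mouse in each group. Events of listed genes had to be called only, those of orthologues were taken by the smallest p, called or not, and for *4932438A13Rik*, a gene named in the study, the called exon with the smallest FDR was taken, which may not be the junction described there. Intervals cover counting error only. Both kinds of test were tested on simulated data. Of 37620 genes, 415 had no match in the annotation (GENCODE M1, NCBIM37) and were left out of the autosomal counts.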

Additional observations from a re-analysis of the deposited data

Results flagged for a closer look

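In 13 of 126 groups tested 1 mouse lay far from the other 4, by the gap to its nearest neighbour as a share of the group's range. Chance gives about 1 in 20 for independent, normally distributed values. These genes and events were chosen by their values, and Ψ is a bounded share, so that this rate is no reference for the count. Gene values of this kind were *Fah* (27.1 CPM) and *Sncaip* (16.1 CPM) in U2AF1(S34F) mouse 9, *Lipg* (35.3 CPM), *Gbp1* (85.2 CPM) and *F830208F22Rik* (7.71 CPM) in U2AF1(WT) mouse 8, *Stfa1* (54.0 CPM) in U2AF1(WT) mouse 9, and *Gm13237* (4.25 CPM), *Rpl34-ps1* (6.08 CPM), *Trim12a* (6.36 CPM) and *Trim5* (1.30 CPM) in U2AF1(S34F) mouse 2. Splicing values were Ψ of 0.453 at the upstream 3′ splice site of *Jmjd1c* in U2AF1(S34F) mouse 9, 0.0612 at that of *Ccdc77* in U2AF1(WT) mouse 12, and 0.803 at the 5′ splice site of *Smek2* in U2AF1(WT) mouse 6. These genes and events were named on the condition that the groups did not overlap. None of these mice could therefore reach the range of the other genotype.

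The effect of the genotype on *Atf3* differed between the treatments by a log2 value of 2.39 (FDR=0.000994, interaction term, edgeR with Benjamini-Hochberg adjustment over 14815 genes), with all 5 sudemycin D6-treated U2AF1(WT) mice below all 5 vehicle-treated ones.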

How the results depend on the processing

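For gene counts, all alternatives stayed within 1.5 times of the counts given, except a minimum log2 fold change of 1 (185 higher, 566 lower). Leaving out 1 mouse gave 1939 to 2700 higher and 2189 to 2878 lower. Splicing counts depended far more on the test. Cassette events included and skipped more numbered 277 and 389 in one model of all 20 mice, 0 and 2 with an estimated dispersion, 44 and 111 by limma, 451 and 521 at |ΔΨ|>0.05 and 228 and 259 at |ΔΨ|>0.1. Of alternatives added after the data were seen, annotated junctions alone gave 148 and 171, a minimum of 2 reads per mouse on the rarer isoform 439 and 547, and the omission of U2AF1(WT) mice 8 and 9 gave 557 skipped. Alternative 3′ splice sites numbered 1 with an estimated dispersion, 45 by limma and 52 at |ΔΨ|>0.1. Alternative 5′ splice sites numbered 10 in one model, 0 with an estimated dispersion, 0 by limma and 11 at |ΔΨ|>0.1. Mutually exclusive exons numbered 78 with an estimated dispersion, 13 with annotated junctions alone and 87 at |ΔΨ|>0.1. Leaving out 1 mouse gave 405 to 663 included, 544 to 742 skipped, 59 to 114, 15 to 31 and 129 to 188 events.

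The share of thymine at −3 was 78.0% (one model), 100% of 2 exons (estimated dispersion) and 68.9% (without U2AF1(WT) mice 8 and 9) for exons skipped more, and 7.87% (one model), 16.3% of 43 exons (limma) and 7.59% (annotated junctions) for exons included more. With 1 mouse left out it was 70.3% to 74.7% and 8.50% to 11.8%. No named event changed direction under any alternative, and of the named genes only the uncalled *Hspa5* did, to a log2 fold change of −0.025 without U2AF1(WT) mice 8 and 9. DESeq2 called 110 genes with an interaction. The cause of these differences was not tested.

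The labels give 4 numbers (6, 9, 10 and 12) to mice of both genotypes. Deviations from the group means correlated at −0.00096, 0.233, 0.332 and −0.164 over genes. The mouse of the same number was the closest match for number 10 and not for 6, 9 or 12. So few values, without a reference, cannot show whether the numbers pair the mice. With the replicate block, 1648 genes were higher and 1922 lower, and 96 cassette events were included and 150 skipped more, with 37 alternative 3′ and 6 alternative 5′ splice sites and 5.43% thymine among exons included more.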
